A study of Caenorhabditis elegans with 4 samples.

Results

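The genes described here code for the acidifying pump, the digestive proteases and part of the membrane proteins of the lysosome in *Caenorhabditis elegans*. A gene was taken as a member when its symbol began with *vha-*, *cpr-*, *asp-*, *cpl-*, *cpz-*, *lmp-* or *scav-*, or was *unc-32* or *cup-5*. The gene table held 59 such genes, and 58 of them had a probe on the array, out of 19814 genes with a named probe. They comprised 9 genes of the peripheral V1 sector of the vacuolar H+-ATPase (V-ATPase), 12 of its membrane V0 sector and accessory subunits, 8 cathepsin B-like proteases, 3 cathepsins of the L and Z types, 17 aspartyl proteases and 9 membrane proteins.

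The V-ATPase uses ATP hydrolysis in the V1 sector to turn a ring of proteolipids in the V0 sector, which carries protons into the lysosome. The low pH that results activates cathepsins, the cysteine and aspartyl proteases that degrade protein delivered by endocytosis and autophagy. In worms, the intestine holds lysosome-related gut granules, where autofluorescent age pigment (lipofuscin) builds up, and V-ATPase subunits also work in the excretory cell, the hypodermis and neurons. Remofuscin (soraprazan) is a small molecule that removes lipofuscin from retinal pigment epithelium cells, and the comparison asks how the transcripts of the lysosomal machinery stood in treated worms.

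Wild-type (N2) worms, fed *Escherichia coli* OP50 at 25 °C, were moved as day-1 adults to plates with 0 µM (NC) or 200 µM remofuscin and collected after 14 days. Each of 2 experiments gave 1 array per group, so that each group had 2 arrays. RNA of pooled whole worms was labelled with Cy3 alone, hybridized to Agilent oligo arrays, and all 4 arrays lay on 1 slide in 1 scan. The experiments are described as independent, with nothing further on the cultures, so the p-values measure only the spread between these samples.

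Signals are given as scaled signals, which are background-corrected intensities set to a common 75th percentile of each array. This percentile lay between 603 and 786 intensity units on the 4 arrays, and 63.3% to 66.6% of spots were well above background. A gene was read from its brightest probe, and probes that 2 or more of the 4 arrays measured well above background were tested. With 2 arrays per group, the median 95% interval of a member's log2 difference reached 0.91 to either side, a factor of 1.88. In RNA of whole worms, fewer cells of a type and less RNA per cell cannot be told apart.

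As a check of the sample type, all 6 intestine markers were above background on all 4 arrays, as were the 4 germ line and 4 neuron markers. None of the intestine markers passed an unadjusted p of 0.05, nor did any of the 16 tested markers of body wall muscle, pharynx, neurons, germ line and sperm, of which the muscle marker *unc-54* had an adjusted p of 0.0181 in a limma fit with the experiment as a replicate block. The summed signal of the intestine markers was between 4482 and 6667 in NC worms and between 4419 and 5542 in remofuscin-treated worms. Most of this sum came from *act-5*, at 2981 and 4600 in NC worms and 2624 and 3380 in remofuscin-treated worms. The sum does not show the other markers, since the fitted log2 difference was -0.31 for *act-5* and above 0 for 5 of the 6. Over the 6 markers it had a median of 0.10 and reached 0.50. The 3 hypodermis markers *col-19*, *rol-6* and *dpy-7*, which code for cuticle collagens, were all higher in remofuscin-treated worms at an unadjusted p of 0.05. Their summed signal was between 1189 and 1493 in NC worms and between 7575 and 8046 in remofuscin-treated worms. Most of this sum came from *col-19*, at 1432 and 1151 in NC worms and 7672 and 7233 in remofuscin-treated worms. The limma adjusted p was 0.0359 for *col-19*, 0.00952 for *rol-6* and 0.170 for *dpy-7*. The part of the difference in hypodermis markers in the values of the lysosomal genes was not tested.

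Of the 58 members, 52 were tested, and 51 were above background on all 4 arrays. Compared with the NC, 1 of the 52 members (1.92%) had a limma p under 0.05 before adjustment, where 3.56% of all 14734 tested genes did. This gene was *cpr-9*, and it was higher in remofuscin-treated worms, as were 2.46% of all genes at this threshold. No member (0 of 52) was lower at this threshold, against 1.1% of all tested genes, and none (0 of 52) combined it with a fold change of 2 in either direction, against 2.23% higher and 0.896% lower. Adjusted by Benjamini and Hochberg over every probe in the test, 0 members passed 0.05, against 0.55% of all genes, and the smallest adjusted p of a member in the limma fit was 1.00. An exact permutation test on 2 against 2 arrays cannot give a p below 0.333. The fitted difference was above 0 for 31 members (59.6%, against 50.1% of all genes). It came to a factor of 1.5 or more for 5 members (*cpr-9*, *cpr-1*, *scav-5*, *asp-11* and *asp-14*), all higher in remofuscin-treated worms, which is 9.62% of those tested against 10.2% of all genes in either direction.

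The experiment can also enter the fit as a replicate block. The adjusted p was then under 0.05 for 2 members, *cpr-9* and *asp-11*, both higher (3.85%, against 5.62% of all genes and 3.73% of them higher). Before adjustment 6 members were higher in that fit, against 6.997% of all genes, and 0 were lower, against 5.34%. All probes share 1 spread in the blocked fit, which has 1 residual degree of freedom.

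The fitted log2 differences of the members ran from -0.37 to 1.00 with a median of 0.07, where the median of all tested genes was 0.00. By family, the median was -0.04 for the V1 sector, 0.03 for the V0 sector, 0.11 for the cathepsin B-like proteases, 0.07 for the L and Z types, 0.17 for the aspartyl proteases and 0.30 for the membrane proteins. The sign of the V0 median and that of the L and Z types turned under quantile normalization, to -0.004 and -0.01, and under normexp background correction, to -0.005 and -0.02. With an array left out, the median ran from -0.24 to 0.18 for V1, from -0.21 to 0.10 for V0, from -0.06 to 0.29 for the cathepsin B-like proteases and from -0.16 to 0.10 for the L and Z types. Only that of the aspartyl proteases (0.04 to 0.42) and that of the membrane proteins (0.14 to 0.36) kept their sign. Leaving an array out also moved the median of all tested genes, from -0.06 without NC array 2 to 0.15 without NC array 1. A kept sign therefore does not show a difference from all genes. No family median was tested.

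Within experiment 1, remofuscin-treated worms had the higher signal for 38 of 52 members (73.1%, against 45.4% of all tested genes), with a median log2 difference of 0.13. Within experiment 2, they had the higher signal for 28 members (53.8%, against 52.5%), with a median of 0.04. Of the members, 25 were higher in both experiments (48.1%, against 29.04%), 11 were lower in both (21.2%, against 31.1%) and 16 changed side (30.8%, against 39.9%). The scaling moved these counts. In experiment 2, the members higher with remofuscin were 21 with each array set to its median (40.4%, against 44.02% of all genes) and 23 after quantile normalization (44.2%, against 48.1%), with a median of -0.07 and -0.08. Under median scaling, 20 members (38.5%, against 28.4% of all genes) were higher in both experiments and 6 of the 52, against 27.2%, lower in both. After quantile normalization 19 members (36.5%, against 28.2%) were higher in both and 11 (21.2%, against 31.3%) lower in both.

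**Figure D1:**
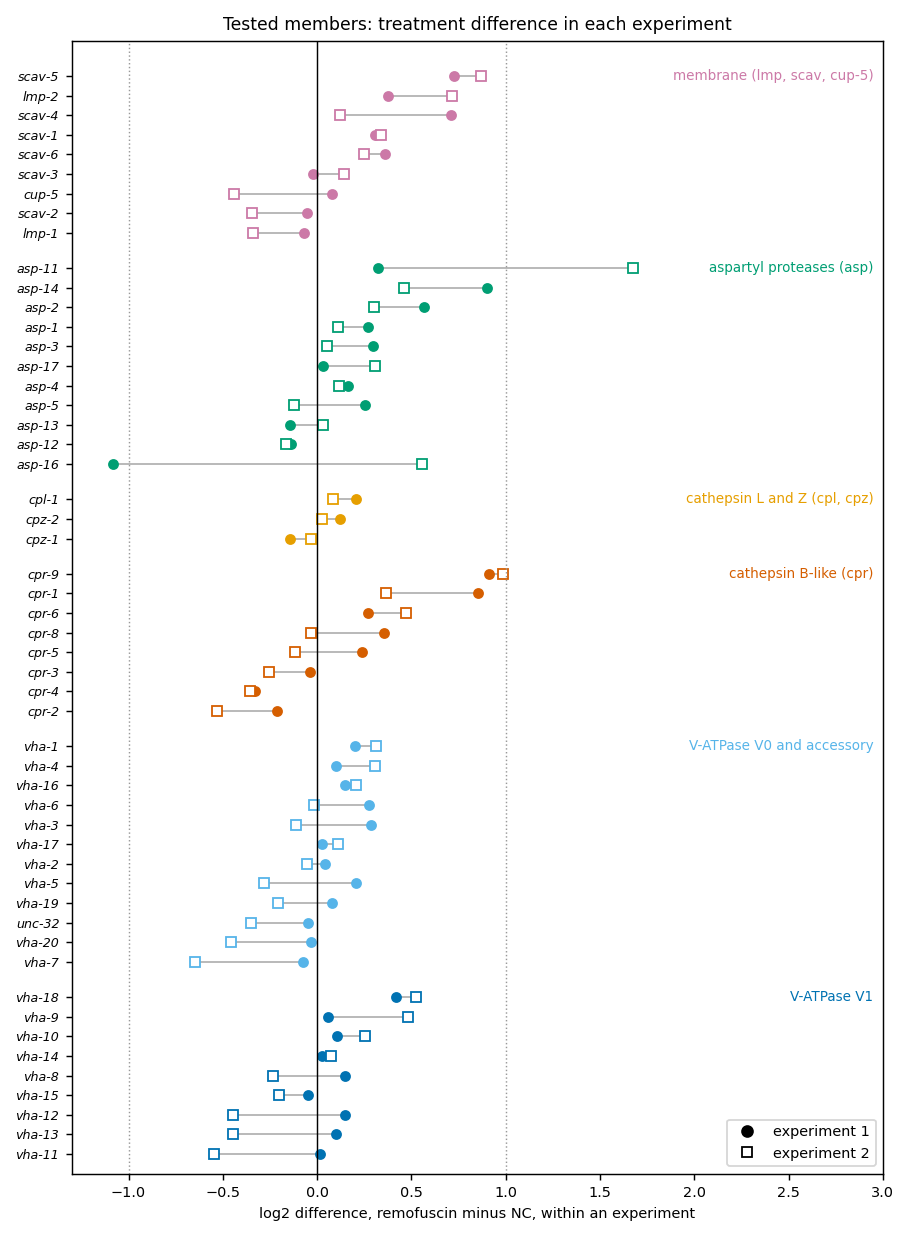
Difference between remofuscin-treated and NC worms in each experiment for the 52 tested members, grouped by family; the x axis is the log2 difference in scaled signal, filled circles are experiment 1, open squares are experiment 2, a grey line joins the values of a gene, and dotted lines mark a fold change of 2. The V-ATPase genes lie between -0.64 and 0.52, while *cpr-9* and *scav-5* lie to the right of this range in both experiments. The genes *cpr-1*, *asp-14*, *scav-4* and *asp-2* lie to the right of it in experiment 1 only, and *asp-11*, *lmp-2* and *asp-16* in experiment 2 only. The gene *asp-16* lies to the left of it in experiment 1.

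The groups did not overlap, with both remofuscin arrays above both NC arrays, for 11 members (21.2%, against 9.36% of all genes). These were *cpr-1*, *cpr-6*, *cpr-9*, *asp-2*, *asp-14*, *asp-17*, *scav-1*, *scav-4*, *scav-5*, *vha-4* and *vha-10*, so that 2 of the 21 V-ATPase genes were among them. Both remofuscin arrays were below both NC arrays for *cpr-4* and *asp-12* (2 members, 3.85%, against 10.97% of all genes).

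The V1 sector was present as 9 genes for the A to H subunits, all tested, and none passed the test. Its catalytic core is a hexamer of the A subunit (*vha-13*) and the B subunit (*vha-12*), and the C subunit (*vha-11*) links V1 to V0 and lets go of it when the pump disassembles. The scaled signal of *vha-13* was 3916 and 9088 in the NC worms of experiments 1 and 2, and 4199 and 6675 in the remofuscin-treated worms. That of *vha-12* was 1091 and 2470 in NC worms and 1207 and 1815 in remofuscin-treated worms. That of *vha-11* was 902 and 1824 in NC worms and 911 and 1246 in remofuscin-treated worms. In all 3 genes the remofuscin arrays lay inside the range of the NC arrays, and experiment 2 was above experiment 1 in both groups. By its brightest probe, each was slightly higher in remofuscin-treated worms in experiment 1 (log2 0.10, 0.15 and 0.01) and lower in experiment 2 (-0.45, -0.45 and -0.55). Over all tested probes, experiment 1 gave -0.24 to 0.51 for *vha-13*, 0.003 to 0.21 for *vha-12* and -0.17 to 0.12 for *vha-11*. In experiment 2 every probe of these genes was lower with remofuscin.

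The 2 V1 genes with the lowest p were *vha-18*, which codes for an H subunit, the regulatory subunit needed for ATP hydrolysis, and *vha-9*, which codes for the F subunit of the central stalk. The signal of *vha-18* was 20110 and 13483 in NC worms and 26916 and 19375 in remofuscin-treated worms. It was higher with remofuscin in both experiments (log2 0.42 and 0.52), but the groups overlapped, and the fitted difference was 0.47 ± 0.41 (SE, n = 2 arrays per group). The signal of *vha-9* was 33139 and 19723 in NC worms and 34479 and 27585 in remofuscin-treated worms, with a fitted difference of 0.27 ± 0.42. The lower NC array set most of this value, which was -0.10 without it. The other H subunit gene, *vha-15*, gave 908 and 1552 in NC worms and 879 and 1347 in remofuscin-treated worms. Between the experiments, *vha-15* and *vha-18* went opposite ways in both groups.

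The remaining V1 genes code for the stalk subunits D (*vha-14*), E (*vha-8*) and G (*vha-10*). Their fitted log2 differences were 0.05, -0.04 and 0.18. The value of *vha-14* is that of its brightest probe, and the other 2 of its 3 tested probes were lower, down to -0.35. The remofuscin arrays of *vha-10* were at 7018 and 7034 and the NC arrays at 6515 and 5906, so the groups were apart by a small step.

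All 12 genes of the V0 sector and its accessory subunits were tested, and none passed the test. The proteolipids of the rotating ring are coded by *vha-1*, *vha-2* and *vha-3* (subunit c) and by *vha-4* (subunit c''). The signal of *vha-1* was 18318 and 14221 in NC worms and 21066 and 17661 in remofuscin-treated worms. Remofuscin was above NC within each experiment (log2 0.20 and 0.31), the groups overlapped, and the fitted difference was 0.26 ± 0.38. All 6 tested probes of *vha-1* gave a difference between 0.24 and 0.31. The neighbour gene *vha-2*, which is transcribed with *vha-1* as an operon, gave -0.01, and *vha-3*, which shares an operon with *vha-11*, gave 0.09 beside -0.27 for *vha-11*.

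The a subunit, which holds the proton half-channels and sends the pump to its membrane, is coded by 4 genes in *C. elegans* with different tissues. The fitted differences were 0.13 for *vha-6*, the intestinal form at the apical membrane, -0.04 for *vha-5*, the form of the excretory cell and hypodermis, and -0.20 for *unc-32*, which is needed in neurons. For *vha-7*, the V0 gene with the lowest p, the signal was 2376 and 4095 in NC worms and 2252 and 2619 in remofuscin-treated worms. The value of experiment 2 decided this difference (log2 -0.08 in experiment 1 and -0.64 in experiment 2), the groups overlapped, and the fit gave -0.36 ± 0.42. Without the second NC array it was 0.03.

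The other V0 and accessory genes had fitted differences of 0.20 (*vha-4*), 0.18 (*vha-16*, subunit d), 0.07 (*vha-17*, subunit e), -0.06 (*vha-19*, related to the accessory subunit Ac45) and -0.24 (*vha-20*). Over all 21 V-ATPase genes, 17 were higher with remofuscin in experiment 1 (81.0%, against 45.4% of all genes) and 8 in experiment 2 (38.1%, against 52.5%). Of the 21 genes, 8 were higher in both experiments (38.1%, against 29.04%) and 4 lower in both (19.05%, against 31.1%). Median scaling gave 20 higher in experiment 1 (95.2%, against 57.2% of all genes) and 6 in experiment 2 (28.6%, against 44.02%). Under it 1 was lower in both (4.76%, against 27.2%). Quantile normalization gave 16 (76.2%, against 48.7%), 7 (33.3%, against 48.1%) and 4 (19.05%, against 31.3%). The shares of all genes thus moved with the scaling too.

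**Figure D2:**
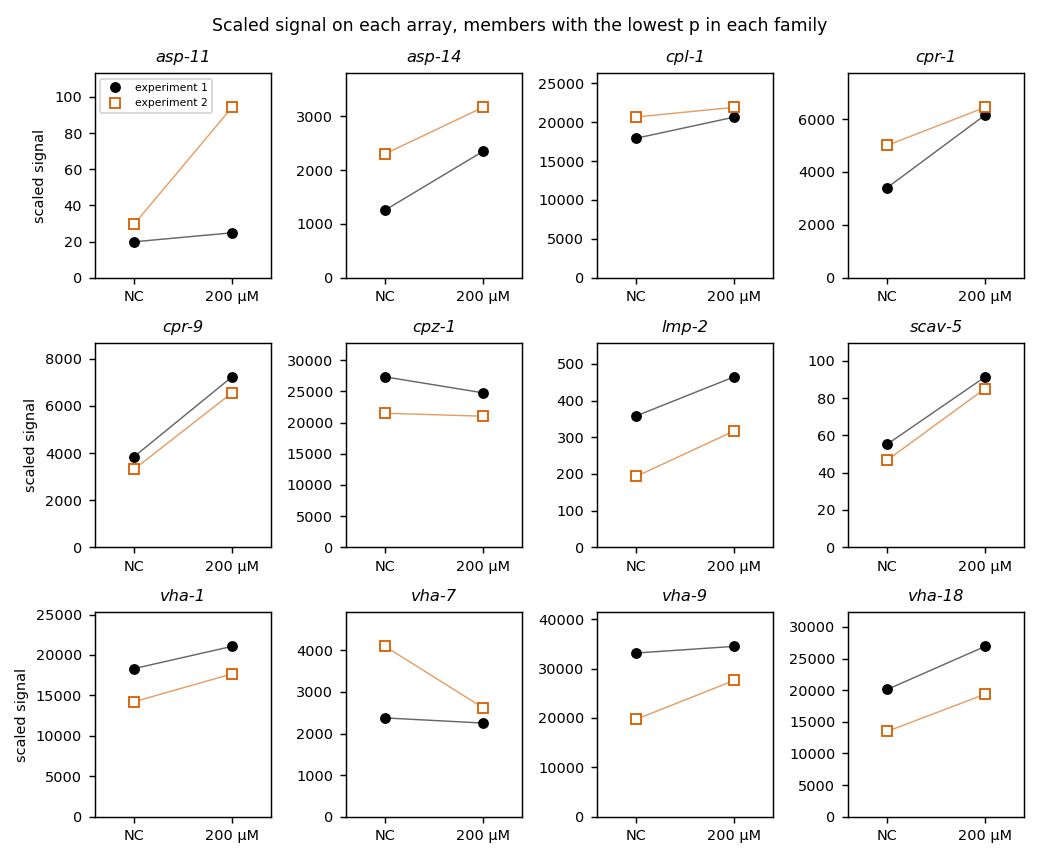
Scaled signal (linear axis from 0) on each array for the 12 members with the lowest p in each family; NC and 200 µM remofuscin are on the x axis, filled circles are experiment 1, open squares experiment 2, and a line joins the arrays of 1 experiment. In *cpr-9* and *scav-5* both remofuscin points stand clear of both NC points, whereas in *vha-7*, *vha-9* and *asp-11* the difference differs between the experiments.

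The experiments themselves were also compared. With limma fitted to experiment 2 minus experiment 1 in place of the treatment, 8 members were higher in experiment 2 at an unadjusted p under 0.05 (15.4%, against 12.9% of all genes), and 4 were lower (7.69%, against 22.3%). The 8 were *vha-13* (log2 0.94, unadjusted p of 0.00787), *vha-12* (0.88, unadjusted p of 0.0109), *vha-15*, *vha-19*, *vha-11*, *lmp-1*, *scav-2* and *cup-5*, and the 4 were *asp-4*, *asp-13*, *asp-16* and *scav-6*. The call of *asp-16* is not a result, since its probe entered the test only through the arrays of experiment 1, where it was above background. No member (0 of 52) and no gene of the array (0.0% in either direction) passed after adjustment in this limma fit. Taken separately in NC and in remofuscin-treated worms, which share no array, 20 of the 21 V-ATPase genes (95.2%, against 86.1% of all genes) differed between the experiments in the same direction. Experiment 2 was higher in both groups for 13 of them (61.9%, against 31.4%) and lower in both for 7 (33.3%, against 54.7%), and *vha-10* was the exception. The differences in the 2 groups correlated across these 21 genes with a Pearson's r of 0.939 and a Spearman's rho of 0.948, and across all 14734 tested genes with an r of 0.736 and a rho of 0.751. These are correlations across genes of the same 4 arrays, and genes are not independent replicates.

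The difference between the experiments was smaller in remofuscin-treated than in NC worms for all 21 V-ATPase genes, and for 43 of the 52 members (82.7%, against 74.0% of all genes). This count of V-ATPase genes was 16 with median scaling (76.2%, against 70.6%) and 17 with quantile normalization (81.0%, against 73.2%). For example, *vha-13* was higher in experiment 2 by a log2 difference of 1.21 in NC worms and of 0.67 in remofuscin-treated worms. For *vha-9* the values were -0.75 and -0.32. The worms of each experiment were not described further, and the cause was not tested.

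**Figure D3:**
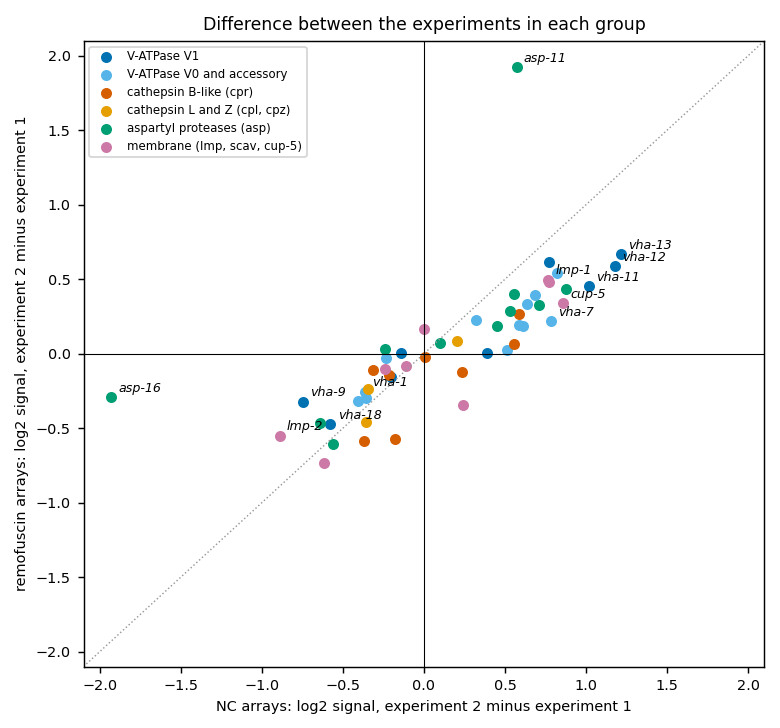
Difference between experiment 2 and experiment 1 in NC worms (x axis, log2) and in remofuscin-treated worms (y axis, log2) for the 52 tested members, coloured by family; the dotted line marks equal differences. The V-ATPase genes (blue) lie along a line flatter than the dotted one, from *vha-9* at the lower left to *vha-13* at the upper right, and *asp-11* and *asp-16* lie apart.

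Among the proteases, the cathepsin B-like *cpr* family (8 genes, all tested) held the only member past the threshold. The signal of *cpr-9* was 3844 and 3310 in NC worms and 7238 and 6558 in remofuscin-treated worms. Both remofuscin arrays were above both NC arrays, by 1.88-fold in experiment 1 and 1.98-fold in experiment 2. The fitted change was 1.93-fold (log2 0.95 ± 0.37, SE, n = 2 arrays per group), with a 95% interval from 1.07-fold to 3.50-fold and a limma p of 0.0337 before and 1.00 after adjustment. With the experiment as a replicate block, the limma adjusted p was 0.0114. Its second probe gave 0.98 and also passed 0.05 before adjustment. With the deposited log2 values, where all probes share 1 spread, *cpr-9* no longer passed 0.05 before adjustment. With an array left out, its log2 difference was between 0.84 and 1.06.

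For *cpr-1*, a cysteine protease of the gut, the signal was 3402 and 5002 in NC worms and 6154 and 6442 in remofuscin-treated worms. The groups did not overlap, but the step was larger in experiment 1 (1.81-fold) than in experiment 2 (1.29-fold), and the fitted difference was 0.61 ± 0.39. For *cpr-6* the signal was 14804 and 11921 in NC worms and 17843 and 16553 in remofuscin-treated worms. All 7 tested probes of *cpr-6* were higher with remofuscin, by 0.37 to 0.55, and the p of each was over 0.05 (lowest 0.173). The probes of 1 gene share the same RNA and are not replicates.

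Lower values in the family were found for *cpr-4*, at 53.6 and 53.7 in NC worms and 42.6 and 42.0 in remofuscin-treated worms. The arrays of each group were close together and the groups apart, but limma, which draws the spread of a probe towards that of all probes, gave -0.34 ± 0.37. The fitted differences of the rest were -0.37 for *cpr-2*, -0.15 for *cpr-3*, 0.06 for *cpr-5* and 0.16 for *cpr-8*, and the last of these lies next to *cpr-5* in the genome. In all, 3 *cpr* genes were higher in both experiments (37.5%, against 29.04% of all genes) and 3 lower in both (37.5%, against 31.1%). The other 2 changed side (25.0%, against 39.9%).

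The cathepsins of the L and Z types were at nearly equal levels in the groups. The signal of *cpl-1*, the cathepsin L needed for yolk processing in embryos, was 17938 and 20678 in NC worms and 20659 and 21922 in remofuscin-treated worms. That of *cpz-1*, a cathepsin Z with a role in molting, was 27325 and 21493 in NC worms and 24757 and 21013 in remofuscin-treated worms. The fitted differences were 0.14 ± 0.37 for *cpl-1* and -0.09 ± 0.38 for *cpz-1*, and *cpz-2* gave 0.07. The 95% interval ran from 0.612-fold to 2.00-fold for *cpl-1* and from 0.513-fold to 1.73-fold for *cpz-1*, so that equality to within less than these bounds was not shown.

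Of the 17 aspartyl proteases with a probe, the cathepsin D and pepsin relatives of the worm, 11 were tested and none passed the test. The signal of *asp-14* was 1256 and 2302 in NC worms and 2349 and 3167 in remofuscin-treated worms. The lower remofuscin array was only just above the higher NC array, and the fitted difference was 0.68 ± 0.44. The signal of *asp-11*, which the gene table lists as a pseudogene, was 19.8 and 29.5 in NC worms and 24.8 and 94.2 in remofuscin-treated worms. The array of experiment 2 alone set its fitted difference of 1.00 ± 0.62, since experiment 1 gave 0.32 and experiment 2 gave 1.68. The fit gave 0.04 when that array was left out. The replicate block gave *asp-11* an adjusted p of 0.00612, and that fit assigns every probe the same spread.

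The aspartyl proteases *asp-3* and *asp-4* are the cathepsin D relatives linked to necrotic cell death in neurons, and *asp-1* is made in the intestine. Their fitted differences were 0.17, 0.14 and 0.19, and each was higher in both experiments. The 5 tested probes of *asp-3* ranged from -0.08 to 0.39. In all, 7 of the 11 were higher in both experiments (63.6%, against 29.04% of all genes). These were *asp-1*, *asp-2*, *asp-3*, *asp-4*, *asp-11*, *asp-14* and *asp-17*, the last by only 0.03 in experiment 1. The gene *asp-12* was lower in both (9.09%, against 31.1%), and *asp-5*, *asp-13* and *asp-16* changed side (27.3%, against 39.9%). The signal of *asp-16* was 33.8 and 8.88 in NC worms and 15.9 and 13.04 in remofuscin-treated worms, and it was well above background on the arrays of experiment 1 alone.

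The other 6 aspartyl proteases had no test. On the remofuscin array of experiment 2 the spot of *asp-6* was marked as an outlier, and with that spot kept its signal was 12302 and 17978 in NC worms and 9661 and 16924 in remofuscin-treated worms (log2 -0.35 and -0.09). The probes of *asp-7*, *asp-9*, *asp-15* and *asp-19* were not well above background on any array (0 of 4). That of *asp-8* was well above background on 1 remofuscin array and on 0 NC arrays, and no fold is given for it. The gene *asp-18* had no probe here.

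The membrane proteins comprised the LAMP-like *lmp-1* and *lmp-2*, 6 scavenger receptor genes of the family of CD36 and LIMP-2 (*scav-1* to *scav-6*), and *cup-5*, the worm mucolipin, a lysosomal cation channel. All 9 were tested and none passed the test. The signal of *scav-5* was 55.3 and 46.7 in NC worms and 91.4 and 85.2 in remofuscin-treated worms. Both remofuscin arrays were above both NC arrays, by 1.65-fold and 1.82-fold in the 2 experiments. The fitted difference was 0.80 ± 0.37 with an unadjusted limma p of 0.0645, and with the replicate block the adjusted p was 0.0586. The signal of *lmp-2* was 358 and 193 in NC worms and 465 and 317 in remofuscin-treated worms, higher within each experiment but overlapping between the groups (0.55 ± 0.45).

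For the other scavenger receptor genes, the fitted differences were 0.32 (*scav-1*), -0.20 (*scav-2*), 0.06 (*scav-3*, a relative of LIMP-2 at the lysosomal membrane), 0.42 (*scav-4*) and 0.30 (*scav-6*). Of the 3 tested probes of *scav-3*, 2 were lower, down to -0.04. The arrays of *scav-1* were at 1091 and 1008 in NC worms and at 1347 and 1272 in remofuscin-treated worms, apart by a step of 1.23-fold and 1.26-fold. The channel gene *cup-5* gave 5116 and 9280 in NC worms and 5412 and 6844 in remofuscin-treated worms, with a fitted difference of -0.18. Like *lmp-1* (-0.20), it was higher in experiment 2 in both groups.

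**Figure D4:**
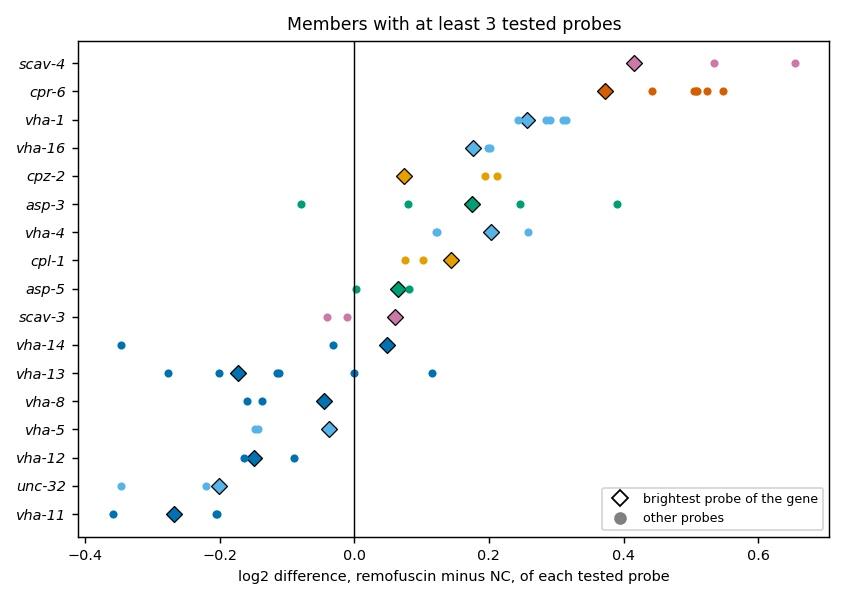
Fitted log2 difference (remofuscin minus NC) of each tested probe, for the members with at least 3 tested probes; diamonds are the brightest probe of a gene, from which the gene was read, and circles are its other probes, coloured by family as in the plot of the 2 experiments. All probes of *cpr-6* lie between 0.37 and 0.55 and all 6 of *vha-1* between 0.24 and 0.31. The probes of *asp-3*, *scav-3*, *vha-13* and *vha-14* fall on both sides of 0.

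Probes of the same gene mostly gave like values. Of the 23 members with several tested probes, 18 had all their probes on the same side of 0, and the range between the probes of a gene had a median of 0.11 and reached 0.47 in *asp-3*. The gene with the most probes besides *cpr-6* was *vha-13*, whose 7 probes gave -0.28 to 0.11. Whether a probe also bound the transcript of a related gene, for instance within the proteolipid genes, was not checked.

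Genes of the lysosome outside the list were set beside it from 5 lists of known genes. Of the other lysosomal enzymes, 2 of 21 tested genes passed an unadjusted limma p of 0.05, both higher, where 2.46% of all genes were higher at that threshold. These were *pcp-2*, a serine carboxypeptidase of the lysosomal prolylcarboxypeptidase family, at 61.4 and 68.6 in NC worms and 211 and 304 in remofuscin-treated worms (unadjusted limma p of 0.000951, adjusted 0.136), and *gana-1*, the α-galactosidase and N-acetylgalactosaminidase, at 106 and 81.9 against 239 and 148 (unadjusted p of 0.0403). In both genes the groups did not overlap, and neither passed after adjustment without the block. With the replicate block the limma adjusted p was 3.29e-11 for *pcp-2*, 0.00524 for *gana-1* and 0.0330 for *ppt-1*, the palmitoyl-protein thioesterase, all higher. In that fit 3.73% of all genes were higher at an adjusted p under 0.05. The median over this list was 0.18.

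Of the 25 tested lysosomal transporters and membrane regulators, 1 passed an unadjusted limma p of 0.05, where 3.56% of all genes did. It was *cln-3.1*, a relative of the Batten disease gene CLN3, at 24.7 and 30.6 in NC worms and 58.9 and 44.4 in remofuscin-treated worms. Its unadjusted limma p was 0.0493. With the replicate block its limma adjusted p was 0.0212, where 3.73% of all genes were higher at an adjusted p under 0.05. The median of the list was -0.06. None passed among the 8 tested gut granule genes (median -0.01), the cysteine protease inhibitors *cpi-1* and *cpi-2* (median 0.09) and the 10 regulators of lysosomal genes (median -0.20). The regulator *hlh-30*, the worm TFEB, was at 139 and 291 in NC worms and at 116 and 184 in remofuscin-treated worms. It was lower with remofuscin within each experiment (log2 -0.26 and -0.66), but the groups overlapped. Of the 2 excretory cell and 2 coelomocyte markers, cells rich in V-ATPase or lysosomes, none passed the test.

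What these arrays could show was limited by their number. The 95% interval of the log2 difference lay above 0 for 1 member, and it lay wholly within a 2-fold change for 11 members. It reached a 2-fold rise for 26 members and a 2-fold fall for 16.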

How the data were processed

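The authors deposited the scanner output of 4 one-colour Agilent arrays as intensity values, which Feature Extraction (version 11.5.1.1 per the file headers) had corrected for background. The authors also deposited a table of log2 values, which for at least 99.94% of probes lay within 0.01 of the log2 scanner intensity so it holds no scaling between arrays. Values after the GeneSpring global normalization of the methods were not used here.

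Control spots and outlier-marked spots were left out, spots of a probe were averaged on the log2 scale, and the 75th percentile of each array was subtracted. Scaled signals are these values on a linear scale, multiplied by the geometric mean of the percentiles (692). The 29060 probes well above background on at least 2 arrays and measured on all 4 were tested with limma (version 3.58.1, R 4.3.3; two-sided, Benjamini-Hochberg over all tested probes; prior with 6.21 degrees of freedom and an SD of 0.42). The fit was tested on simulated data. Python 3.11.15 was used for tables and figures. Of 43603 probes, 34320 (78.7%) had an identifier found in a gene table (WBcel235 assembly), which was used for names and for which genes are neighbours, with no coordinates.

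Values on each array were planned for members with a limma p under 0.05 and for the 2 lowest p in each family, and further members were chosen after their values were seen. Genes of the context lists are named with values where the limma p was under 0.05, and *hlh-30* was added after its values were seen. Values are also given for *act-5*, *unc-54* and *ppt-1*, whose unadjusted limma p was over 0.05 without the block. The members and lists were chosen with earlier results of these data known. Promoters and sequences were not analysed here.

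Every experiment holds 1 NC and 1 remofuscin array by the labels, so the numbers pair the samples. Over 29060 probes, same-experiment deviations correlated with a Pearson's r of 0.736 and a Spearman's rho of 0.763. The experiment as a replicate block leaves 1 residual degree of freedom. The limma prior was then infinite, so all probes share an SD of 0.27 on the log2 scale and the p-values of that fit rest on it.

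Other settings tried were scaling to the median, quantile normalization, normexp background correction (offset 50, median spot intensity), the deposited log2 values, the methods' t-test, an intensity trend in limma, testing dim probes too, testing only probes above background on all 4 arrays, keeping outlier-marked spots, averaging the probes of a gene, the replicate block, and omission of each array. When an array was omitted, the spread came from the pair of the other group, which assumes that the lone array varies alike. The limma prior was infinite in these fits too, so all probes share 1 SD. It was 0.39 without an NC array and 0.56 without a remofuscin array. The same held for the deposited log2 values, with an SD of 0.50. The within-experiment counts under other scalings were added after the data were seen.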

Additional observations from a re-analysis of the deposited data

How the results depend on the processing

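Over 15 alternatives for each of 12 members (180 values), 160 kept their direction and side of an unadjusted p of 0.05, 12 passed it newly, 4 no longer passed, and 4 turned direction. The 4 that no longer passed were all *cpr-9*, whose log2 difference stayed between 0.84 and 1.06. They arose with the deposited log2 values and with an array left out, fits in which all probes share 1 spread. Members higher at an unadjusted p of 0.05 numbered 1 (*cpr-9*). With the deposited log2 values the number was also 1, but the gene was *asp-11*. The number was 3 with the methods' t-test (*cpr-9*, *scav-1*, *scav-5*) and 3 without a filter on dim probes (*asp-8*, *cpr-9*, *scav-5*). It was 6 with the replicate block (*asp-11*, *asp-14*, *cpr-1*, *cpr-9*, *lmp-2*, *scav-5*). Members lower numbered 0, and were 1 with the methods' t-test (*cpr-4*) and 0 to 1 with an array left out (*asp-16* without NC array 2). After adjustment in limma 0 passed, and 2 did with the replicate block (*asp-11*, *cpr-9*; 3.85%, against 5.62% of all genes). The block changed no other adjusted call among the members.

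The median over all members was 0.07 and ran from 0.069 to 0.17 with an array left out. The median of all tested genes moved as well. The members were below all genes without NC array 1 (0.073 against 0.147) and without remofuscin array 2 (0.069 against 0.095). They were above all genes without NC array 2 (0.165 against -0.064) and without remofuscin array 1 (0.120 against -0.032). The 4 turned values arose with an array left out: *cpz-1* (0.086 without NC array 1, 0.031 without remofuscin array 2; range -0.26 to 0.086), *vha-7* (0.032 without NC array 2; range -0.75 to 0.032) and *vha-9* (-0.10 without NC array 2; range -0.10 to 0.64). With median scaling, 6 members were lower in both experiments in place of 11, and 1 had its remofuscin arrays below its NC arrays in place of 2. With quantile normalization, 4 V-ATPase genes (19.05%, against 49.5% of all genes) were lower in experiment 2 in both groups in place of 7.

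Over all tested probes, 535 were higher and 295 lower past the methods' limits on p and fold change. The higher probes were 205 with normexp, 242 with the methods' t-test, 330 genes by the mean of their probes, and 378 to 1607 with an array left out. The lower were 16 with normexp, 157 with the methods' t-test, 680 without a filter, 70 when all 4 arrays had to be above background, 142 genes by the mean of their probes, and 234 to 961 with an array left out, the most without NC array 1. That array also moved the median of all genes to 0.15, while the other scalings moved it by under 0.1. The causes were not tested. Signal over background limited *asp-8*, *asp-16* and the 4 aspartyl protease genes with 0 arrays above background.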
